A study of Mus musculus with 6 samples.

Results

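Complement is a set of blood and tissue proteins that tag and lyse targets, and 5 of its genes outside C1q were described here in the outer layer of the embryonic mouse heart: C1ra, C2, C3, Serping1 and Cd55. They were picked by symbol from the 14549 genes of a table of normalised read counts, and all 5 had a row. They had been chosen with the difference between double-knockout and wild-type libraries already known, so that difference is given for them as a description, with no test.

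The tissue was epicardium with subepicardium, dissected from mouse embryos at E16.5 (embryonic day) and sequenced as polyadenylated RNA. The mutant embryos were Meis1fl/fl;Meis2fl/fl;WT1-Cre, called dKO here, in which Cre recombinase under WT1 control acts on floxed alleles of both homeobox genes, so the alleles recombine only where WT1-Cre is or has been active. The comparison embryos, called control, were labelled wild-type, and the labels do not say whether they carried floxed alleles or Cre. Each group had 3 libraries made from 2 pooled hearts each, so the spread between single hearts was not measured. Libraries keep the numbers of their titles (dKO 1, 2 and 3, control 1, 2 and 4).

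Complement activation starts along the classical, lectin or alternative route and converges on C3. In the classical route C1q carries the proteases C1r and C1s. C1r activates C1s, which cleaves C4 and C2 to form the enzyme that cuts C3. Serping1 encodes C1 inhibitor, which blocks C1r and C1s, and Cd55 encodes decay-accelerating factor, a membrane protein that dissociates the C3-cutting enzymes. Liver is the main source of the circulating proteins, while fibroblasts, mesothelium and macrophages are known to make several of them locally.

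Of the 5 genes, C1ra, C3 and Cd55 had a start-region sequence in the RefSeq table used (GRCm38.p6), each running from 250 bases before to 50 bases after the RefSeq start; C2 and Serping1 had none there. These 3 sequences are shown because the genes were low in the same libraries. Capitals mark every match, on either strand, to 4 short motifs chosen with the values known: TGACAG (the core bound by MEIS proteins), TTGCNNAA (C/EBP), TTCNNNGAA (the STAT GAS element) and TATAAA (the TATA box). Each is written 5′ to 3′ on the strand of its gene: C3 on the minus strand at chr17:57228087-57228386, C1ra on the plus strand at chr6:124512371-124512670 and Cd55 on the minus strand at chr1:130462695-130462994.
C1ra: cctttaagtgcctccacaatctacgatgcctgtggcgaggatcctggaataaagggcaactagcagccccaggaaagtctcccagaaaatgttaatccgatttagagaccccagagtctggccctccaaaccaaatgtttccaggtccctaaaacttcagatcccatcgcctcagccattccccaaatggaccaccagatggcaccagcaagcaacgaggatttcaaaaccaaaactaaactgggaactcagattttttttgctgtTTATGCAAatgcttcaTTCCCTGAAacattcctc
C3: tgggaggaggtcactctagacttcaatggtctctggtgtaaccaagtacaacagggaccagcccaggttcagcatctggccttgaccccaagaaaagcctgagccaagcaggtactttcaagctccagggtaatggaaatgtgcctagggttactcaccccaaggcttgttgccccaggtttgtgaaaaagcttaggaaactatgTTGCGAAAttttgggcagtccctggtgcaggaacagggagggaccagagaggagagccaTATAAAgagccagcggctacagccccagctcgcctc
Cd55: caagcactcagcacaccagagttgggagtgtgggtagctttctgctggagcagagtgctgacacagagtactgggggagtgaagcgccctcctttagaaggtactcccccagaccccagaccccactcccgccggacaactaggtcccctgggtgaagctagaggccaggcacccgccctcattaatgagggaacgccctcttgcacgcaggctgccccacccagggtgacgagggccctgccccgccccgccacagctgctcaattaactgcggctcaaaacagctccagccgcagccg
The C3 window held TTGCGAAA, a match to the C/EBP core, at bases -45 to -38 from the RefSeq start, and TATAAA at bases 15 to 20 after it. The C1ra window held a C/EBP match on the opposite strand, TTATGCAA as read on the strand of the gene, at bases 17 to 24, and the GAS match TTCCCTGAA at bases 33 to 41. The RefSeq start of C1ra lies 216 bases downstream of the GENCODE start given for it below, whereas those of C3 and Cd55 are the same in both. The Cd55 window held none of the 4 motifs, and TGACAG was found in none of the 3 windows. Among 32851 start regions of the same length, 10.8% held the C/EBP core, 13.6% the TATA box, 8.30% the GAS element and 19.2% TGACAG. These matches are descriptions of letters in a window, and binding was not measured.

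The 6 libraries held 13146322 to 20635676 reads, and the targeted genes were checked first. Meis2 had 44.5, 34.8 and 44.5 in dKO 1, 2 and 3, against 86.1, 85.6 and 63.3 in control 1, 2 and 4, with a log2 change of -0.90 (SE 0.16, limma adjusted p = 0.00352). Meis1 had 58.5, 74.1 and 65.0 in the dKO libraries, against 106, 63.6 and 63.4 in the control libraries, and did not pass (log2 change -0.20, limma adjusted p = 0.521; log2 change 0.045 without control 1). Both values count reads over all exons, and which exons were floxed is not in the labels. The epicardial label was checked on the mesothelial markers Upk3b and Msln, which averaged 615 ± 157 and 389 ± 33.5 in the control libraries (SD, n = 3). Cardiomyocyte marker RNA was present there too, with sums over 12 markers of 4340, 9098 and 9778 in control 1, 2 and 4. Upk3b and Msln therefore do not show how pure the pools were. In the dKO libraries Upk3b averaged 50.1 ± 14.6 and Msln 36.9 ± 12.2 (SD, n = 3), so the label rests on less marker RNA there. Control 1 stood apart from the other controls on the first principal component, at 59.3 against 35.9 and 34.5 for control 2 and 4, with the dKO libraries between -48.7 and -39.8. Mitochondrially encoded genes took 11.3% to 19.9% of the signal in dKO libraries and 5.99% to 10.4% in control libraries, and the part of this in the results was not tested.

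Every level below is a normalised read count per 1e6 scaled reads, on which 1 read was worth 0.0487 to 0.0740. Log2 changes are dKO minus control after adding 1 to each value, which makes the change of a low gene look smaller than it is. In bulk tissue, fewer cells of a type and less RNA per cell cannot be told apart.

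All 5 genes were lower in every dKO library than in every control library. Of all genes in the table, a share of 21.1% showed that separation in the lower direction and 12.2% were called lower by the test, and nothing is read from the 5 of 5 because the genes were picked by this difference. Their summed level was 50.3, 46.5 and 53.2 in dKO 1, 2 and 3, against 472, 440 and 490.1 in control 1, 2 and 4. The fold differed among them, from 1.09% of the control mean for C1ra to 18.3% for Serping1.

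Among the proteases, C1ra, which encodes the C1r protease of mouse tissues, was close to the limit of counting in dKO tissue. C1ra (ENSMUSG00000055172, GRCm38 chromosome 6, 124512405 to 124523443, plus strand) had 0.0311, 0.555 and 0.268 in dKO 1, 2 and 3, against 34.5, 19.2 and 24.7 in control 1, 2 and 4. The dKO values rest on 0, 7 and 5 reads and the control values on 558, 301 and 388 reads. Every dKO value was under 1, so C1ra met the filter of 1 or more in 3 libraries only through the controls. C1ra averaged 0.285 ± 0.262 in dKO libraries and 26.1 ± 7.73 in control libraries (SD, n = 3 each), a log2 change of -4.38 with an SE of 0.29. Pooled over libraries, its reads in dKO were 0.914% of those in control after scaling (95% exact binomial interval 0.471% to 1.60%, counting error only). With edgeR on the recovered reads, which adds no pseudocount of 1, its log2 change was -6.71. No exonic base of C1ra overlaps another annotated gene. Its close copy C1rb had no row and was not analysed here, so reads that fit both genes cannot be assigned with certainty.

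C2, the protease cleaved by C1s, was the least even of the 5 among controls. C2 (ENSMUSG00000024371, chromosome 17, 34862604 to 34898265, minus strand) had 0.964, 2.55 and 1.78 in dKO 1, 2 and 3, against 73.0, 26.2 and 30.1 in control 1, 2 and 4. Control 1 was thus 2.59 times the mean of the other controls, and the lowest control was still 10.3 times the highest dKO value. C2 averaged 1.76 ± 0.794 in dKO libraries and 43.1 ± 25.9 in control libraries (SD, n = 3 each), a log2 change of -3.89 (SE 0.38), and of -3.44 without control 1. Of its exonic bases, 46.9% are shared with other annotated genes, chiefly Gm20547, a model on the same strand that spans C2 and Cfb, so part of its reads could belong to that model. In a fit that added the mean log2 value of 12 cardiomyocyte markers as a covariate, the C2 change was -1.94, the smallest that any setting gave. That covariate did not overlap between the groups, a limit described below.

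C3, the central component that all routes cleave, had the largest log2 change of the 5 on the scale with 1 added, while edgeR and DESeq2 gave a larger one for C1ra (-6.71 and -6.76) than for C3 (-5.98 and -6.00). C3 (ENSMUSG00000024164, chromosome 17, 57203970 to 57228136, minus strand) had 1.34, 1.07 and 2.80 in dKO 1, 2 and 3, against 102, 100.3 and 136 in control 1, 2 and 4. The dKO values rest on 21, 14 and 57 reads, and dKO 3 was the highest of them. C3 averaged 1.74 ± 0.931 in dKO libraries and 113 ± 20.1 in control libraries (SD, n = 3 each), a log2 change of -5.41 (SE 0.25), which was the second lowest of the 14549 genes. Per kilobase of annotated exon, 94.8% of genes had a higher level than C3 in dKO libraries and 13.4% in control libraries. Its change ran from -6.00 with DESeq2 to -4.95 with a pseudocount of 2.

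The mean of each regulator in dKO libraries was a larger share of its control mean, at 18.3% for Serping1 and 11.9% for Cd55, than that of C2 (4.09%), C3 (1.54%) or C1ra (1.09%). The differences between genes were not tested, and the log2 change of C2 was smaller than that of Cd55 with the cardiomyocyte covariate (-1.94 for C2, -3.48 for Cd55, -2.55 for Serping1) and with control 1 and dKO 1 left out (-3.21 for C2, -3.43 for Cd55). Serping1, the C1 inhibitor gene (ENSMUSG00000023224, chromosome 2, 84765387 to 84775444, minus strand), had 31.4, 34.9 and 39.0 in dKO 1, 2 and 3, against 181, 192 and 201 in control 1, 2 and 4. Both groups were tight, with 35.1 ± 3.80 in dKO libraries and 192 ± 9.87 in control libraries (SD, n = 3 each), a log2 change of -2.42 (SE 0.12) that stayed between -2.55 and -2.35 under every setting run. Cd55, the decay-accelerating factor gene (ENSMUSG00000026399, chromosome 1, 130439027 to 130462744, minus strand), had 16.6, 7.43 and 9.43 in dKO 1, 2 and 3, against 81.5, 102 and 98.1 in control 1, 2 and 4. It averaged 11.2 ± 4.84 in dKO libraries and 93.9 ± 10.9 in control libraries (SD, n = 3 each), a log2 change of -3.03 (SE 0.25). Here dKO 1 was the highest dKO library, whereas it was the lowest for C1ra, C2 and Serping1. The mouse copy Cd55b had no row and was not analysed here.

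Levels between genes were compared only per kilobase of annotated exon. On that scale Serping1 was the highest of the 5 in both groups, at 15.1 in dKO libraries and 82.4 in control libraries. In dKO libraries Cd55 followed at 2.30, then C2 at 0.456, C3 at 0.338 and C1ra at 0.0955. In control libraries C3 followed at 21.9, then Cd55 at 19.3, C2 at 11.1 and C1ra at 8.77. In controls the means of C3 and Cd55, and those of C2 and C1ra, differed by less than their spread, and in dKO libraries so did those of C2 and C3.

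Of 48 other complement genes listed, 19 had a row; the list covers the classical, lectin and alternative routes, the terminal components, regulators and receptors, without the C1q chains. Of these 19, 6 were lower in dKO libraries and 1 was higher by limma adjusted p, against 12.2% and 9.81% of all genes tested, and edgeR gave the same 6 and 1, against 11.4% and 8.96% of all genes. Among the 6 lower genes, C4b passed the filter on level only through the control libraries, so its direction was not free. The median log2 change of the 19 was -0.13, against 0.00 for all genes tested. It was -3.89 for the 5 genes above, which were picked by this difference, so nothing is read from that contrast.

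**Figure D1:**
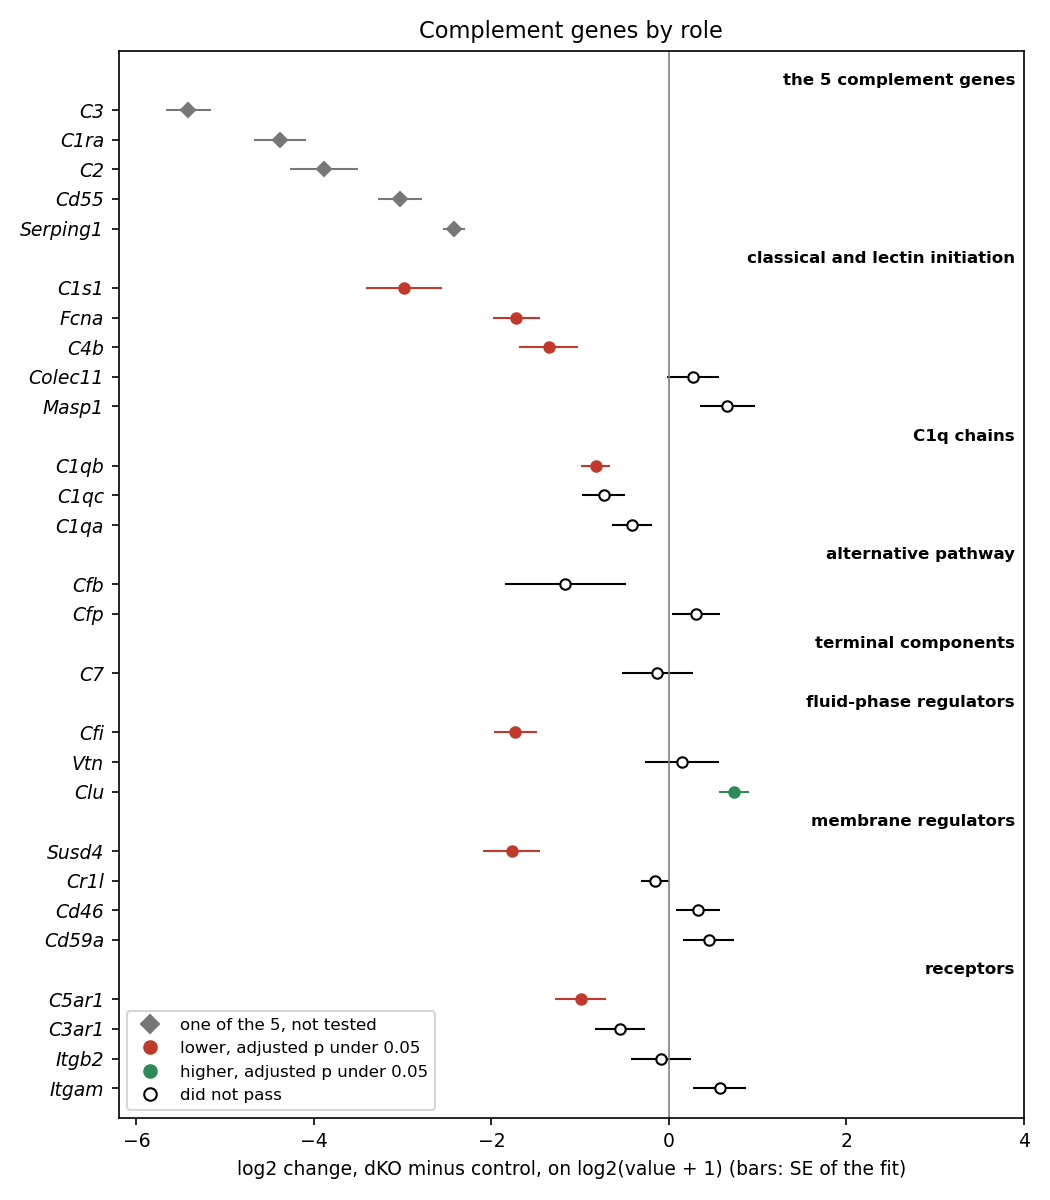
Log2 change, dKO minus control, with the SE of the fit, for the 5 complement genes (grey diamonds, not tested), 19 other complement genes and 3 C1q chains, grouped by role; filled circles passed the limma test (red lower, green higher). C1s1, Fcna, C4b, C1qb, Cfi, Susd4 and C5ar1 passed below 0, and Clu passed above 0.

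In the initiation routes, C1s1, Fcna and C4b fell, while Masp1 and Colec11 did not pass. C1s1, the C1s protease that C1r activates, had 2.52, 3.96 and 1.68 in dKO 1, 2 and 3, against 59.1, 16.3 and 21.5 in control 1, 2 and 4 (log2 change -2.99, SE 0.43, limma adjusted p = 0.00100). As for C2, control 1 was the highest control, and 18.4% of the exonic bases of C1s1 are shared with the model Gm16567 on the other strand. Fcna, a ficolin that recognises sugars in the lectin route, averaged 1.46 ± 0.240 in dKO libraries and 7.15 ± 1.42 in control libraries (SD, n = 3 each; log2 change -1.72, limma adjusted p = 0.00162). C4b, the component cleaved together with C2, was low throughout, with 0, 1 and 0 reads in dKO 1, 2 and 3, against 45, 21 and 18 reads in control 1, 2 and 4. Pooled and scaled, the C4b reads in dKO were 1.13% of those in control (95% exact binomial interval 0.0283% to 6.47%, counting error only). C4b met the filter of 1 or more in 3 libraries only through the controls, and a gene this low in dKO libraries could not have entered otherwise. Its call (limma adjusted p = 0.0164) was lost without dKO 3 (limma adjusted p = 0.0554) and without control 1 (limma adjusted p = 0.0593). It was also lost with control 1 and dKO 1 left out together (limma adjusted p = 0.0741) and with the replicate block (limma adjusted p = 0.0899). That block adds the replicate number to the fit, so dKO 3 and control 4, alone in their numbers, do not inform its change. The lectin-route protease Masp1 averaged 20.5 ± 5.26 in dKO libraries and 13.1 ± 6.12 in control libraries (SD, n = 3 each; log2 change 0.66, limma adjusted p = 0.165), and it passed without control 4 (log2 change 0.98, limma adjusted p = 0.0449). The collectin Colec11 averaged 21.5 ± 6.38 in dKO libraries and 17.95 ± 6.38 in control libraries (SD, n = 3 each; limma adjusted p = 0.561).

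Of the C1q chains, which macrophages make, 1 of 3 fell by limma and 2 of 3 by edgeR, against 12.2% and 11.4% of all genes. C1qb fell to 18.7 ± 1.78 in dKO libraries, against 34.0 ± 3.89 in control libraries (SD, n = 3 each; log2 change -0.82, limma adjusted p = 0.00525). The C1qb call was lost with the replicate block (limma adjusted p = 0.134), in which only libraries 1 and 2 of each group inform the change. C1qa (log2 change -0.42, limma adjusted p = 0.216) and C1qc (log2 change -0.73, limma adjusted p = 0.0529) did not pass, and C1qc passed without control 1 (limma adjusted p = 0.0371) and with edgeR (adjusted p = 0.0491).

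Of 3 measured genes of the alternative route and the terminal complex, 0 passed with limma or edgeR, and 0 had an unadjusted limma p under 0.05. Cfb, the protease that takes the place of C2 in the alternative route and the next gene to it, had 0.528, 1.66 and 0.0244 in dKO 1, 2 and 3, against 5.16, 0.0319 and 6.44 in control 1, 2 and 4. Control 2 and dKO 3 each had 0 reads, 79.5% of the exonic bases of Cfb are shared with Gm20547, and the groups overlapped (log2 change -1.17, limma adjusted p = 0.256). Without control 2 it passed (log2 change -2.07, limma adjusted p = 0.0129). Cfp, the gene of properdin, which stabilises the alternative enzyme, averaged 6.19 ± 2.16 in dKO libraries and 4.65 ± 0.211 in control libraries (SD, n = 3 each; limma adjusted p = 0.465). C7, the single terminal component with a row, averaged 1.23 ± 0.754 in dKO libraries and 1.45 ± 0.918 in control libraries (SD, n = 3 each; limma adjusted p = 0.849).

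Among the regulators in solution, Cfi fell, Clu rose, and Vtn did not pass. Cfi, the protease factor I that inactivates C3b and C4b, had 4.76, 7.88 and 9.77 in dKO 1, 2 and 3, against 25.3, 24.9 and 28.5 in control 1, 2 and 4 (log2 change -1.73, SE 0.24, limma adjusted p = 0.000947). Clu, whose product clusterin blocks the terminal complex, had 65.7, 50.5 and 70.4 in dKO 1, 2 and 3, against 43.7, 33.3 and 33.7 in control 1, 2 and 4 (log2 change 0.74, SE 0.17, limma adjusted p = 0.0116), a call that was lost without dKO 3 (limma adjusted p = 0.0581). The vitronectin gene Vtn was low, at 1.61 ± 0.618 in dKO libraries and 1.55 ± 1.47 in control libraries (SD, n = 3 each; limma adjusted p = 0.830).

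Of 4 membrane regulators other than Cd55, Susd4 fell. Susd4, a membrane protein that restrains the C3-cutting enzyme, averaged 4.06 ± 2.27 in dKO libraries and 15.5 ± 3.50 in control libraries (SD, n = 3 each; log2 change -1.77, limma adjusted p = 0.00343). Cr1l, the broadly expressed rodent regulator Crry, averaged 69.9 ± 16.2 in dKO libraries and 76.7 ± 3.15 in control libraries (SD, n = 3 each; log2 change -0.15, SE 0.16, limma adjusted p = 0.538). Cd59a, which blocks the terminal complex, averaged 37.3 ± 5.68 in dKO libraries and 28.7 ± 11.6 in control libraries (SD, n = 3 each; limma adjusted p = 0.295). Cd46 was low, at 5.16 ± 1.09 in dKO libraries and 3.85 ± 0.168 in control libraries (SD, n = 3 each; limma adjusted p = 0.388).

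Of 4 receptor genes, C5ar1, the receptor of the C5a fragment, fell to 2.70 ± 0.547 in dKO libraries, against 6.50 ± 2.01 in control libraries (SD, n = 3 each; log2 change -0.99, limma adjusted p = 0.0332). That call was lost in 5 of the 6 fits that left out 1 library, with limma adjusted p of 0.0675 without dKO 1, 0.0555 without dKO 2, 0.112 without dKO 3, 0.0936 without control 2 and 0.111 without control 4, and with quantile normalization (limma adjusted p = 0.0522). The C3a receptor gene C3ar1 (log2 change -0.55, limma adjusted p = 0.196) and the integrin chains Itgam (log2 change 0.57, limma adjusted p = 0.205) and Itgb2 (log2 change -0.09, limma adjusted p = 0.880) of complement receptor 3 did not pass.

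Partners of the 5 genes outside the cascade did not all move with them. Adgre5, the adhesion receptor CD97 that binds CD55, had 56.2, 73.6 and 61.0 in dKO 1, 2 and 3, against 28.0, 30.5 and 49.4 in control 1, 2 and 4 (log2 change 0.84, limma adjusted p = 0.0168). It did not pass without dKO 2 (limma adjusted p = 0.0701) or without control 2 (limma adjusted p = 0.0599), and 24.6% of its exonic bases are shared with other genes. Cd109, a membrane relative of C3 from the same thioester protein family, had 59.8, 83.2 and 63.8 in dKO 1, 2 and 3, against 33.4, 34.8 and 36.6 in control 1, 2 and 4 (log2 change 0.95, SE 0.15, limma adjusted p = 0.00181). Bdkrb2, a receptor of bradykinin, whose formation C1 inhibitor restrains, was lower (log2 change -0.77, limma adjusted p = 0.0468), a call lost in all 6 fits that left out 1 library (limma adjusted p 0.0598 without dKO 1, 0.0791 without dKO 2, 0.165 without dKO 3, 0.0826 without control 1, 0.0898 without control 2 and 0.122 without control 4) and with edgeR (adjusted p = 0.0643).

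Of 17 measured genes of acute-phase and interferon signalling, which is known to induce complement genes in liver and other cells, 6 were lower by both limma and edgeR, against 12.2% and 11.4% of all genes. None rose by either tool or at an unadjusted limma p under 0.05, and the list median was -0.38 on the log2 scale. The 4 with the smallest p were Irf1, Il6ra, Cebpb and Osmr. Irf1, an interferon-regulated transcription factor, fell to 11.6 ± 1.35 in dKO libraries, against 28.2 ± 2.43 in control libraries (SD, n = 3 each; log2 change -1.21, limma adjusted p = 0.00102). Il6ra, the interleukin-6 receptor gene, fell to 3.72 ± 1.20 in dKO libraries, against 14.3 ± 2.20 in control libraries (SD, n = 3 each; log2 change -1.72, limma adjusted p = 0.00131). Cebpb, a C/EBP transcription factor, fell to 3.001 ± 1.27 in dKO libraries, against 13.7 ± 2.90 in control libraries (SD, n = 3 each; log2 change -1.91, limma adjusted p = 0.00172), with 20.7% of its exonic bases shared with another gene. The oncostatin M receptor gene Osmr fell by 1.07 on the log2 scale (limma adjusted p = 0.00251).

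Marker lists of several cell types moved with the 5 genes, by limma calls that covered 12.2% of all genes in the lower and 9.81% in the higher direction. All 14 epicardial and mesothelial markers were lower, with summed levels of 403 to 527 in dKO libraries and 2612 to 3898 in control libraries. Of 10 fibroblast markers 9 were lower (sums 11942 to 15502 in dKO libraries, 28617 to 32134 in control libraries), of 10 macrophage markers 6 (sums 214 to 273 in dKO libraries, 713 to 1026 in control libraries), of 4 mast cell markers 3 (sums 52.5 to 62.5 in dKO libraries, 242 to 315 in control libraries) and of 6 lymphatic endothelial markers 5 (sums 135 to 176 in dKO libraries, 423 to 606 in control libraries). Of the markers called lower, the mast cell gene Tpsb2 and the lymphatic gene Ccl21a were below 1 in every dKO library. Both passed the filter on level only through the control libraries, so their direction was not free. The fibroblast, mast cell and lymphatic markers not called lower were Postn, Kit and Prox1. Their log2 changes were above 0, at 0.42, 0.41 and 0.35 in that order, and none passed. Postn and Kit had an unadjusted limma p under 0.05. Kit, at 47.5, 51.3 and 56.2 in dKO 1, 2 and 3, made up most of the mast cell sums there. Macrophage markers that did not pass had log2 changes below 0. All 12 cardiomyocyte markers were higher, with sums of 22810 to 26559 in dKO libraries and 4340 to 9778 in control libraries. Of 8 blood endothelial markers 1 was lower. Of 7 erythroid and 3 measured neutrophil markers 0 passed with limma or edgeR, while 1 erythroid marker had an unadjusted limma p under 0.05. Each measured marker had at least 1 read in each group, and no hepatocyte marker had a row, so liver RNA was not assessed. The part of these cell types in the complement differences was not tested.

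**Figure D2:**
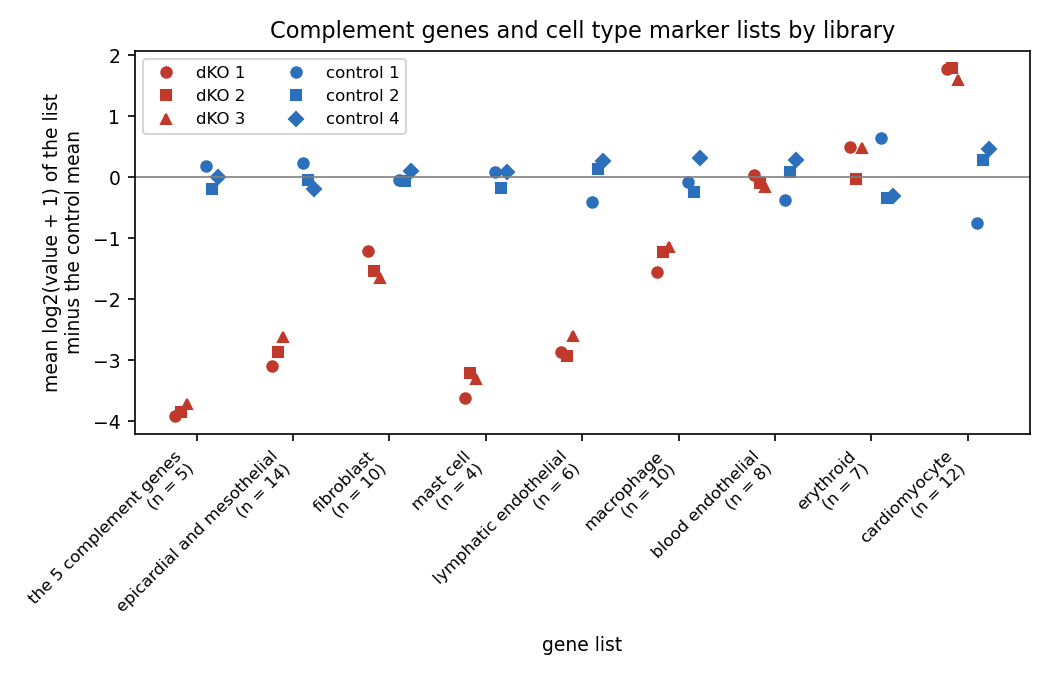
Mean log2 of the value plus 1 over each gene list, minus the mean of the 3 control libraries, for 3 dKO (red) and 3 control (blue) libraries; n is the number of genes. The dKO points of the 5 complement genes, which were picked by this difference, lie lowest. Those of the mast cell, epicardial and lymphatic lists lie above them. The dKO points of the cardiomyocyte list lie on the other side of 0.

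The cardiomyocyte covariate was 10.05, 10.07 and 9.88 in dKO 1, 2 and 3. In control 1, 2 and 4 it was 7.54, 8.56 and 8.75. The groups did not overlap on it, so a fit that holds both can hardly tell group from covariate. Nothing about cardiomyocyte content is therefore read from calls lost or changes moved in it. The fit with the cardiomyocyte covariate called 141 genes of the table lower and 38 higher. It called 0 of the 19 other complement genes by limma adjusted p, while 5 were lower and 2 higher at an unadjusted p under 0.05. Among genes called without it, the log2 change with the covariate was -0.85 for C1s1, -0.25 for C4b, -1.12 for Susd4, 1.36 for Clu, -2.11 for C5ar1, 0.014 for Adgre5 and -0.44 for Ube2l6, each more than 1.5 times away from the value without it, and none of these passed (limma adjusted p 0.125 for Clu to 0.994 for Adgre5). The values of the 5 genes in that fit were -5.59 for C3, -3.52 for C1ra, -3.48 for Cd55, -2.55 for Serping1 and -1.94 for C2. With control 1 and dKO 1 left out together they were -5.39 for C3, -4.02 for C1ra, -3.43 for Cd55, -2.38 for Serping1 and -3.21 for C2.

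For each of the 5, the genes with the nearest profile were sought among 11135 named protein-coding genes, by the root mean square difference of log2 values over the 6 libraries, each centred on its control mean. The 6 libraries form 2 groups, so likeness mostly reflects the size of the group difference. Nearest to C3 were the mesothelial gene Lrrn4 (0.44), the lymphatic chemokine gene Ccl21a (0.51), which has near-identical copies, and the mast cell protease gene Cma1 (0.53). Nearest to C1ra were Ppl (0.11), which encodes periplakin, Chrdl1 (0.22), a BMP antagonist gene, and the mast cell tryptase gene Tpsb2 (0.23). Nearest to C2 were the carboxylesterase gene Ces2g (0.29), the prostaglandin receptor gene Ptger3 (0.31) and Egfl6 (0.34), and control 1 was high for C2. Nearest to Serping1 were Gstm2 (0.14), Capn6 (0.15) and Igfbp6 (0.16), and nearest to Cd55 were the zinc transporter gene Slc39a8 (0.23), the thyroid hormone receptor gene Thrb (0.29) and Zbtb8b (0.30).

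Position along the chromosome was examined for the 2 nearest measured protein-coding genes on each side of each of the 5, and 1 gene that overlaps C2, 21 neighbours in all, chosen after values were seen. Of these 21, 4 were lower and 2 higher by limma, against 12.2% and 9.81% of all genes, with a median log2 change of -0.01. C1s1 lies 6.90 kb from C1ra, in the opposite orientation, and is described above. On the other side, at 1.76 kb, C1rl, a C1r-like protease gene, was low, at 0.470 ± 0.202 in dKO libraries and 1.63 ± 0.713 in control libraries (SD, n = 3 each; log2 change -0.81, limma adjusted p = 0.102), and it passed without the variance trend (limma adjusted p = 0.0421). C1rl met the filter on level only through the control libraries, so its direction was not free. The other neighbours that were lower were Lpcat3, 140 kb from C1ra (log2 change -0.62, limma adjusted p = 0.0120), Ube2l6, 23.4 kb from Serping1 (log2 change -0.996, limma adjusted p = 0.00454) and Thsd7b, 220 kb from Cd55 (log2 change -1.23, limma adjusted p = 0.0133). Those that were higher were Cxcr4, 1847 kb from Cd55 (log2 change 2.81, limma adjusted p = 0.000107) and Tubb4a, 116 kb from C3 (log2 change 0.89, limma adjusted p = 0.0381). Tubb4a did not pass without dKO 1, dKO 3, control 1, control 2 or control 4 (limma adjusted p 0.1075, 0.0893, 0.0700, 0.0643 and 0.0962 in that order). The neighbours of C2 other than Cfb had log2 changes between -0.01 and 0.14, and none of them passed.

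**Figure D3:**
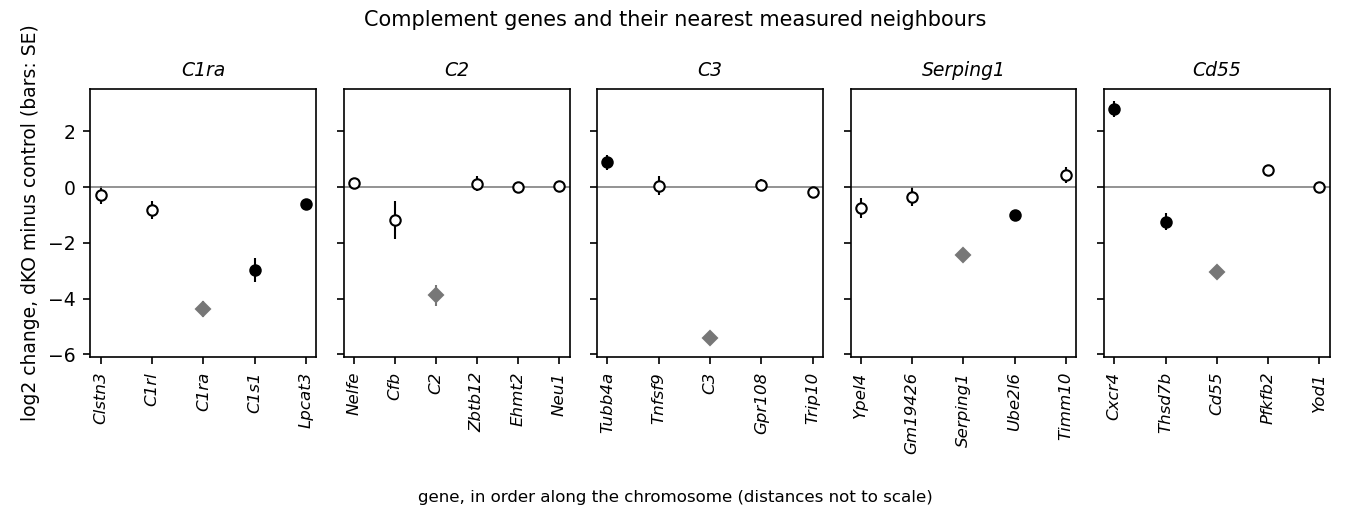
Log2 change, dKO minus control, with SE, for each of the 5 complement genes (grey diamonds, not tested) and the measured protein-coding genes around it, in chromosomal order; filled circles passed the limma test. C1s1 beside C1ra lies far below 0, and the neighbours of C3 and, Cfb apart, of C2 lie near or above 0.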

How the data were processed

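Polyadenylated RNA from 6 libraries (3 dKO, 3 control; 40 ng of total RNA each) was analysed. Per the submitters' processing notes, the authors used cutadapt and RSEM 1.3.1 on GRCm38; no source used here gives the annotation release, the later normalization or the gene filter. The values deposited are a normalised signal. All 87294 equalled a whole number of reads plus 0.5, within 0.01 reads, per 1e6 of a scaled library size, so reads were recovered from them.

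limma 3.58.1 (R 4.3.3; linear model, variance trend) was run on log2 of the value plus 1, after a filter at 1 or more in 3 libraries that all 14549 genes passed; two-sided p-values were Benjamini-Hochberg adjusted across the table (threshold 0.05). edgeR 4.0.16, DESeq2 1.42.0 on the recovered reads and other settings served as alternatives. The kit is not stated to keep strand, so reads in overlaps may belong to either gene. Positions and exonic overlaps come from GENCODE M21, which holds 14530 of the identifiers.

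Named genes were the 5 genes, Meis1 and Meis2, the measured complement list and C1q chains, partners that passed, and the 4 signalling genes with the smallest p. Of the markers, Upk3b and Msln were named, though the rule held 2 per list. Postn, Kit and Prox1 were added after values were seen, because they leaned against their lists. Also named were the 3 nearest profiles (higher group mean 5 or above) and chromosomal neighbours, the latter added after values were seen. Members and lists were chosen with earlier results of these data known. 1 gene of the complement list is not reported here. Replicate numbers were not treated as pairs, except in the replicate block among the alternatives. Nothing in the labels says that p-values reflect more than the spread between these pools. Intervals cover counting error only.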

Additional observations from a re-analysis of the deposited data

How the results depend on the processing

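Under all 17 alternatives the 5 genes stayed lower in dKO libraries; 70 of their 85 alternative values moved by less than 1 SD between replicates and 15 by more, within -6.76 to -3.52 for C1ra, -4.65 to -1.94 for C2, -6.00 to -4.95 for C3, -3.48 to -2.80 for Cd55 and -2.55 to -2.35 for Serping1. The settings that change only the filter or the variance trend cannot move a log2 change, so their values count among the 70. Of 315 alternative values of the 19 other complement genes, 276 kept the direction and the side of the threshold, 20 lost the call, 2 gained it and 17 changed sign. The fit without a filter repeats the main fit, because all genes passed the filter, so its values count among the 276. In the fits that left out 1 library, 4 to 6 of the other complement genes fell and 0 to 2 rose, 1269 to 1545 genes of the whole table fell and 898 to 1262 rose (910 without dKO 2, 898 without dKO 3), the Meis2 change was -1.05 to -0.79 and the Meis1 change -0.32 to 0.045. With the replicate block, 4 of the other complement genes fell and 0 rose, and 780 genes of the whole table fell and 580 rose, against 1778 and 1427 without it. In that block dKO 3 and control 4 have no same-numbered partner, so its changes rest on libraries 1 and 2 of each group. Nothing about pairing is read from its smaller counts. Same-numbered libraries deviated in opposite directions (correlations -0.18 and -0.20), but so did dKO 3 and control 4, which share no number (-0.15). The labels do not say whether the numbers pair the pools, and these weak correlations cannot settle it. In the fit with the cardiomyocyte covariate 0 of the other complement genes fell and 0 rose, 141 genes fell and 38 rose in the table, and the Meis2 change was -0.45 (limma adjusted p = 0.779); the cause was not tested.

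Signs turned for genes that did not pass, with these log2 changes under the cardiomyocyte covariate: Meis1 0.87, C3ar1 0.29, C7 0.97, Cd59a -1.11, Colec11 -1.29 and Masp1 -0.74. Without control 1 they were 0.045 for Meis1, 0.14 for C7 and -0.036 for Colec11; with control 1 and dKO 1 left out together 0.13 for Meis1, 0.44 for C7, -0.22 for Colec11 and 0.10 for Itgb2; without dKO 1 0.17 for C7 and 0.23 for Itgb2; with quantile normalization 0.094 for C7 and 0.063 for Itgb2; without control 2 0.027 for Itgb2 and -0.084 for Vtn; and without control 4 -0.058 for Vtn. Leaving out 1 library gave ranges of -0.43 to 0.17 for C7, -0.036 to 0.51 for Colec11, -0.33 to 0.23 for Itgb2 and -0.084 to 0.59 for Vtn. Depth limits C1ra and C4b, which had 12 and 1 reads in all dKO libraries together.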
